A study of Mus musculus with 4 samples.

Results

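C1q-positive liver macrophages are a minority among the cells of this study, which sorted CD4 T cells from the fatty liver. They were selected on their own counts: cells of the RNA libraries with more than 200 genes and under 5% mitochondrial UMIs, at least 3 UMIs of *C1qa*, *C1qb* and *C1qc* together, no UMI of *Cd3e*, *Cd3d* or *Cd3g*, and none of *Siglech*. A UMI (unique molecular identifier) is 1 counted RNA molecule. The rule found 174 of 28018 cells, 64 of 10556 in the library labelled WT and 110 of 17462 in the library labelled dKO.

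Both groups of male mice received CD, a choline-deficient high-fat diet (60 kcal% fat, 0.1% methionine), for 8 weeks, a model of metabolic dysfunction–associated steatotic hepatitis (MASH). dKO mice carry *Nr4a1* fl/fl and *Nr4a2* fl/fl alleles with *Cd4*Cre, a driver active in T cells, so the macrophages are not the cells in which the alleles were targeted; WT mice have no such deletion. Hepatic CD4+ T cells of 2 mice per genotype were pooled before 5′ droplet capture, and each genotype has 1 RNA library and 1 T cell receptor library. Over all other filtered cells, *Nr4a1* had 725 CPM (UMIs of the gene per 1000000 UMIs) in the library labelled WT and 1671 CPM in the library labelled dKO, and *Nr4a2* had 183 and 306 CPM. Both values are higher in the library that should lack the genes, and the counts do not show which exons they come from, so the libraries are named here as WT-labelled and dKO-labelled. In this text, 2 values joined by "and" stand for the WT-labelled and the dKO-labelled library, in that order.

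C1q is the recognition part of the classical complement pathway. Its A, B and C chains assemble into one molecule that binds antibody on targets and material on dying cells, and in most tissues resident macrophages are its main source. The liver holds Kupffer cells, the resident macrophages that clear particles from sinusoidal blood, and macrophages that arise from blood monocytes. In steatotic liver, a state called lipid-associated macrophages is known for *Trem2*, a lipid-sensing receptor, and for lysosomal and lipid-handling genes.

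With 1 library per genotype there is no replicate and no test between genotypes, and cells are not replicates of a mouse. The 95% interval given beside a value is exact and covers counting error only. It comes from the Poisson distribution for a level in CPM, from the conditional binomial for a log2 ratio and from Clopper and Pearson's method for a share of cells. A difference between the libraries cannot be told apart from a difference between the pools of mice, the sorts or the captures. The macrophages held 140002 UMIs in the WT-labelled and 341101 in the dKO-labelled library, so 3 UMIs, the floor set here for a count of 0, stand for 21.4 and 8.80 CPM. Their median depth was 1507 UMIs (526 to 8702) and 2744 UMIs (568 to 6718) per cell, and their median number of genes was 756 and 1289. The deeper cells of the dKO-labelled library show more genes at 1 UMI, so shares of cells with a UMI were compared at a fixed depth of 1000 UMIs per cell drawn at random, which 52 and 100 of the macrophages reached and 12 and 10 did not.

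The macrophages made up 0.606% (0.467 to 0.774) of filtered cells in the WT-labelled and 0.630% (0.518 to 0.759) in the dKO-labelled library, and these intervals overlap. These are shares of a CD4 sort, and not shares of the liver's macrophages. How macrophages came into the sort was not tested. The C1q sum ran from 3 to 95 UMIs with a median of 14 in the WT-labelled library, and from 3 to 114 with a median of 17.5 in the dKO-labelled one. Just inside the threshold, at 3 UMIs, were 6 and 8 cells with median *Lyz2* counts of 3.5 and 8 UMIs. Just outside it, at 2 UMIs, were 7 and 13 cells with medians of 6 and 13. The median of *Lyz2*, which encodes the lysozyme of myeloid cells, was thus no lower in the cells just outside than in those just inside. These are few cells, and *Lyz2* was found in 6 of 7 and 10 of 13 just outside against 5 of 6 and 7 of 8 just inside. In the dKO-labelled library the cells at 2 UMIs were also deeper, with a median of 3050 against 2401.5 UMIs. At 10 or more C1q UMIs were 39 and 71 cells, of which 39 and 70 had *Lyz2*.

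C1q UMIs also occurred together with T cell UMIs. Of 181 and 319 filtered cells with at least 3 C1q UMIs, 115 and 192 had a *Cd3* UMI (63.5% and 60.2%), and the rule leaves these out. Among those without *Siglech*, the droplets with both, 110 and 180, had a receptor contig in 41 and 54. *Csf1r* was at 192 and 298 CPM in them against 714 and 589 CPM in the macrophages, and their median depth was 2559.5 and 2388 UMIs. Of the macrophages, 2 of 64 (3.13%, 0.381 to 10.8) had a contig, both of 1 TRA chain with 2 and 3 UMIs, and 0 of 110 did in the dKO-labelled library (up to 3.30%). In comparison, 45.3% and 36.5% of T cells had one (cells with a *Cd3* UMI and no UMI of C1q, *Lyz2* or *Siglech*). A C1q UMI was found in 413 of 8424 and 736 of 13428 cells with *Cd3*, a marker of T cells, which should lack C1q, and 115 and 192 of them held at least 3. The part of free RNA in these counts was not tested. The libraries share 242 cell barcodes, and no macrophage of one has the barcode of a macrophage of the other.

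**Figure D1:**
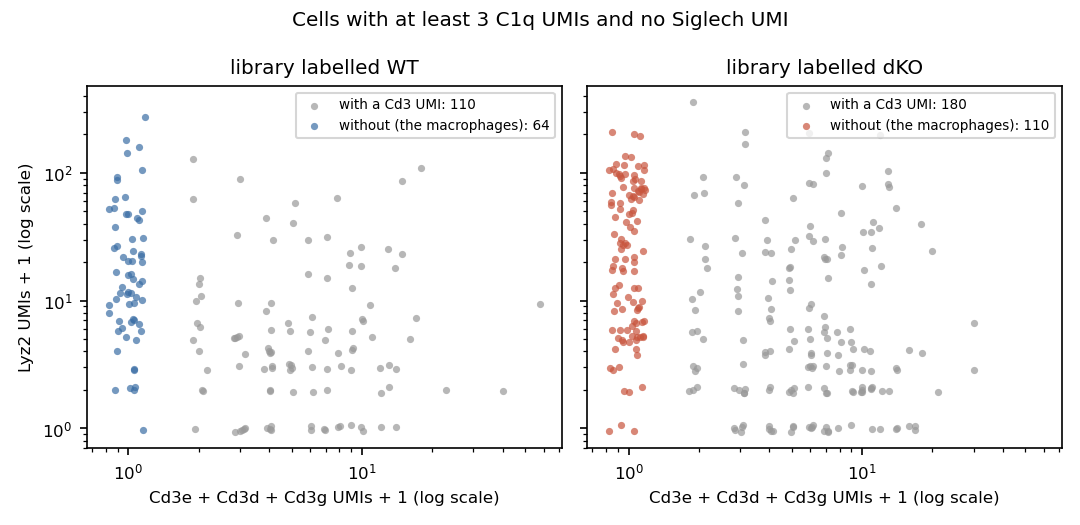
Cells with at least 3 C1q UMIs and no Siglech UMI, 1 point per cell, slightly jittered, with Cd3e, Cd3d and Cd3g UMIs plus 1 on the x axis and Lyz2 UMIs plus 1 on the y axis, both logarithmic. The 64 and 110 coloured cells without a Cd3 UMI are the macrophages, and the 110 and 180 grey cells with at least 1 Cd3 UMI spread over the same range up to 132 and 343 Lyz2 UMIs, against 260 and 209 in the macrophages, with more cells at 0.

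The genes behind the rule lie side by side on chromosome 4 of GRCm38, on the minus strand: *C1qb* (ENSMUSG00000036905, chromosome 4, 136880129 to 136886187), *C1qc* (ENSMUSG00000036896, chromosome 4, 136889804 to 136893065) and *C1qa* (ENSMUSG00000036887, chromosome 4, 136895917 to 136898803). The levels of these genes only describe the cells, since the rule chose the cells by them. Their ratios between the libraries are given without a conclusion for the same reason. *C1qa* had 2507 CPM (2252 to 2784) in the WT-labelled library and 2301 CPM (2143 to 2468) in the dKO-labelled library, *C1qb* had 3921 and 3867 CPM and *C1qc* had 2129 and 2275 CPM. The log2 ratios (dKO-labelled over WT-labelled) were -0.12 (-0.31 to 0.06), -0.02 (-0.16 to 0.13) and 0.10 (-0.10 to 0.29). The 250 bases before the start of *C1qb* and *C1qc*, as RefSeq places them on GRCm38.p6, were searched because these genes define the cells. GENCODE, the source of the gene positions above, starts *C1qc* farther upstream, so that 151 bases of its window lie in the first exon there and are not printed. Shown are chr4:136886201-136886450 and chr4:136893066-136893164, both minus strand, written 5′ to 3′. Capitals mark GAGGAA on either strand, the core bound by PU.1-type factors (PU.1, encoded by *Spi1*, is the leading macrophage factor of this family).
C1qb: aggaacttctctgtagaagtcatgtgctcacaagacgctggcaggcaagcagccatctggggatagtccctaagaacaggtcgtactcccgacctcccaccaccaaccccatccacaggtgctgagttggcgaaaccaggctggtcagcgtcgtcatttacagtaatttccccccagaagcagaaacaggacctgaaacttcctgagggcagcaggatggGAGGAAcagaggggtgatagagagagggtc
C1qc: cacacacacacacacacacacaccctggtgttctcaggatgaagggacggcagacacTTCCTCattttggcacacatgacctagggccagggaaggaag
Each window holds 1 match, and 23.3% of all 32817 promoter windows of this length hold at least 1. *Spi1* itself had 300.0 and 381 CPM in the macrophages, with a log2 ratio of 0.35 (-0.17 to 0.88).

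All 17 genes of a macrophage core list had UMIs in both libraries, summing to 26957 and 25283 CPM, against 581 and 1184 CPM in T cells. The same list summed to 23329 and 25457 CPM in C1q-negative *Lyz2* myeloid cells (no C1q UMI, at least 3 of *Lyz2*, none of *Cd3* or *Siglech*, 78 and 91 cells), and 4 of its 17 genes were past 2-fold higher in the C1q-positive cells of both libraries, where 2.45% of all genes compared were. The list holds *Lyz2*, which the T cells lack and the C1q-negative cells have by their definition. Without it, the other 16 genes summed to 12336 and 11489 CPM in the macrophages, 581 and 1184 CPM in T cells and 9986 and 10555 CPM in the C1q-negative cells. *Csf1r*, the receptor for the growth factor CSF1, was found in 41 of 64 and 83 of 110 macrophages. *Adgre1*, which encodes F4/80, had 214 and 246 CPM against 41.2 and 61.7 CPM in the C1q-negative cells, and it is one of the 4. *Mertk*, a receptor for apoptotic cells, had 179 and 173 CPM against 17.7 and 30.9 CPM. *Apoe*, which encodes a lipid-carrying apolipoprotein, had 19364 CPM (18642 to 20107) in the WT-labelled library and 11815 CPM (11453 to 12185) in the dKO-labelled library. It was found in 62 of 64 and 103 of 110 macrophages, and 1 cell of the WT-labelled library held 287 of its 2711 UMIs. Ranked by their ratio to the remaining filtered cells, the lower of both libraries, the leading 20 genes of at least 100 CPM in each were *Cd207*, *Mertk*, *C3ar1*, the C1q genes, *Igf1*, *Snx24*, *Ms4a7*, *Sash1*, *Apoe*, *Vcam1*, *Itga9*, *Adgre1*, *Lpl*, *Trem2*, *Gdf15*, *Cd63*, *Nr1h3* and *Msr1*. This order is a description, since the rule chose the cells. *Cd207*, which encodes the lectin langerin, led the list with 143 and 120.2 CPM, yet it came from 5 of 64 and 9 of 110 cells.

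Most defining genes of other liver cells were at or near 0, but their lists held genes that macrophages also express. The hepatocyte list summed to 507 and 481 CPM, against 23.6 and 70.6 CPM in T cells, mostly *Hp* (15 and 54 UMIs) and *Trf* (54 and 93 UMIs). The liver endothelial list summed to 307 and 389.9 CPM, against 119.9 and 78.3 CPM, mostly the Fc receptor *Fcgr2b* (39 and 125 UMIs). *Ttr*, *Serpina1a* and *Lyve1* had no UMI, *Alb* had 1 and 2, and 6 of 8 stellate cell and fibroblast genes had none in either library. The dendritic cell list summed to 357 and 519 CPM, against 285 and 296 CPM in T cells, with *Flt3* and *Zbtb46* at 0 and *Itgax* (15 and 64 UMIs) and *Irf8* (18 and 39 UMIs) present. The plasmacytoid dendritic cell list summed to 807 and 598 CPM, mostly *Bst2* (84 and 128 UMIs). The neutrophil list had 6 and 29 UMIs, with *S100a9*, *Ngp* and *Camp* at 0, and the B cell list 11 and 6, with *Ms4a1* and *Pax5* at 0. The part of such cells in the results was not tested. Proliferation genes summed to 35.7 and 38.1 CPM, and *Mki67* had 0 and 4 UMIs.

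T cell RNA was present in some of the cells that the rule selected. Over the 25 genes of lists for T cells and Tregs, 40 of 64 and 64 of 110 cells had no UMI, while 6 and 14 cells with at least 5 held 72.5% and 79.8% of all such UMIs. The cell with the most had 25 of 1131 UMIs in the WT-labelled library, beside 3 C1q and 0 *Lyz2* UMIs. In the dKO-labelled library it had 39 of 1083 UMIs, beside 4 C1q and 2 *Lyz2* UMIs. Whether such cells are macrophages was not tested, and they stay in the counts and ratios unless said otherwise. Without the 6 and 14 cells, the share of filtered cells was 0.549% and 0.550%. The summed level of the T cell list was 714 and 396 CPM against 7416 and 6941 CPM in T cells, and that of the Treg list was 143 and 431 CPM against 1549 and 6812 CPM. *Cd4*, the marker of the sort, had 57.1 and 61.6 CPM in the macrophages, in 7 of 64 and 16 of 110 cells, against 249.9 and 868 CPM in T cells. The summed T cell list was thus lower in the macrophages than in T cells of both libraries. The summed Treg list was higher in the dKO-labelled library in T cells and in the macrophages, where it rested on 20 and 147 UMIs.

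**Figure D2:**
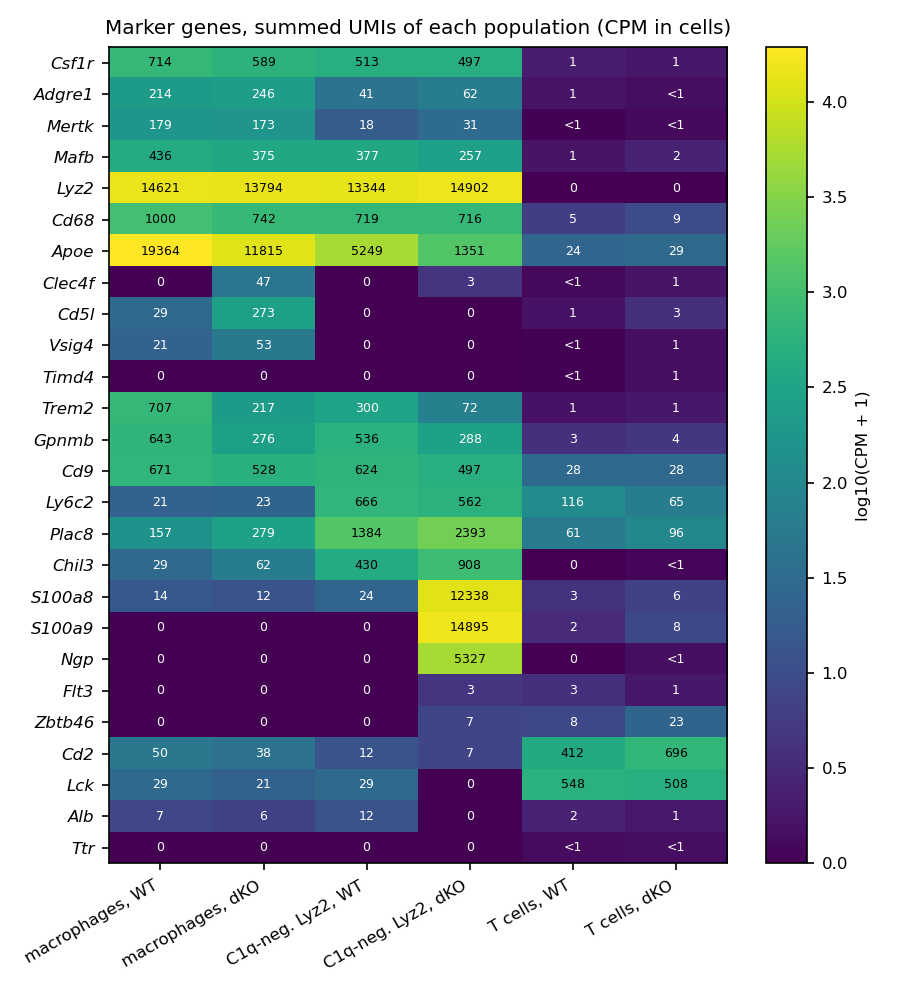
Levels of marker genes (rows) in C1q-positive macrophages, C1q-negative Lyz2 myeloid cells and T cells of each library (columns), with colour as log10(CPM + 1) and the CPM written in each field. Macrophage genes fill the first 4 columns, Ly6c2 and Chil3 the C1q-negative ones, and S100a8, S100a9 and Ngp mainly the C1q-negative cells of the dKO-labelled library.

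The C1q-negative *Lyz2* cells are the nearest comparison, although the C1q counts that separate the 2 populations also chose them, so no test applies. Of 2902 genes with a mean of at least 50 CPM, the rule genes left out, 71 (2.45%) were past 2-fold higher in the macrophages in both libraries and 56 (1.93%) past 2-fold lower. The macrophages had more *Mrc1* (the mannose receptor), with 78.6 and 214 CPM against 11.8 and 3.43 CPM. *Vcam1*, an adhesion molecule, had 136 and 196 CPM against 0 and 3.43 CPM. *Cd81* had 286 and 331 CPM against 23.6 and 48 CPM, *Cd72* had 229 and 188 CPM against 35.3 and 10.3 CPM, and *Igf1*, a growth factor, had 314 and 229 CPM against 58.9 and 10.3 CPM. *Pf4*, a chemokine common in resident macrophages, had 221 and 79.2 CPM against 11.8 and 3.43 CPM. These genes are higher in the macrophages of both libraries. On the other side stood monocyte genes, whose list of 12 summed to 2093 and 2615 CPM in the macrophages and 7688 and 10394 CPM in the C1q-negative cells. Between the libraries, 7 of the 12 monocyte genes reached at least 50 CPM on average and 20 UMIs within the macrophages. None was past 2-fold, where 5.27% of all genes were past it higher and 5.37% lower, so this count says little. Their median log2 ratio was 0.11, and the summed list had a log2 ratio of 0.32 (0.13 to 0.52). *Ly6c2*, the marker of classical monocytes, had 21.4 and 23.5 CPM in the macrophages against 666 and 562 CPM. *Chil3* had 28.6 and 61.6 CPM against 430.1 and 908 CPM, and *Plac8* had 157 and 279 CPM against 1384 and 2393 CPM. The C1q-negative cells of the dKO-labelled library also held neutrophil genes, with *S100a9* at 0 and 14895 CPM, so that population does not have the same make-up in both libraries.

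The design's question for these cells is whether macrophages taken alongside T cells differ between the genotypes. Of 2940 genes with a mean of at least 50 CPM and at least 20 UMIs over both libraries, 155 (5.27%) were past 2-fold higher and 158 (5.37%) past 2-fold lower in the dKO-labelled library. The median log2 ratio of all 2940 was 0.04. With every cell given equal weight, by averaging the CPM of single cells, the counts were 335 higher and 183 lower. This filter on level and UMIs is the one meant where a gene is said to have passed. These percentages are the background against which the lists below are read: they count genes past a size, with no test, and many low genes pass it with wide intervals.

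**Figure D3:**
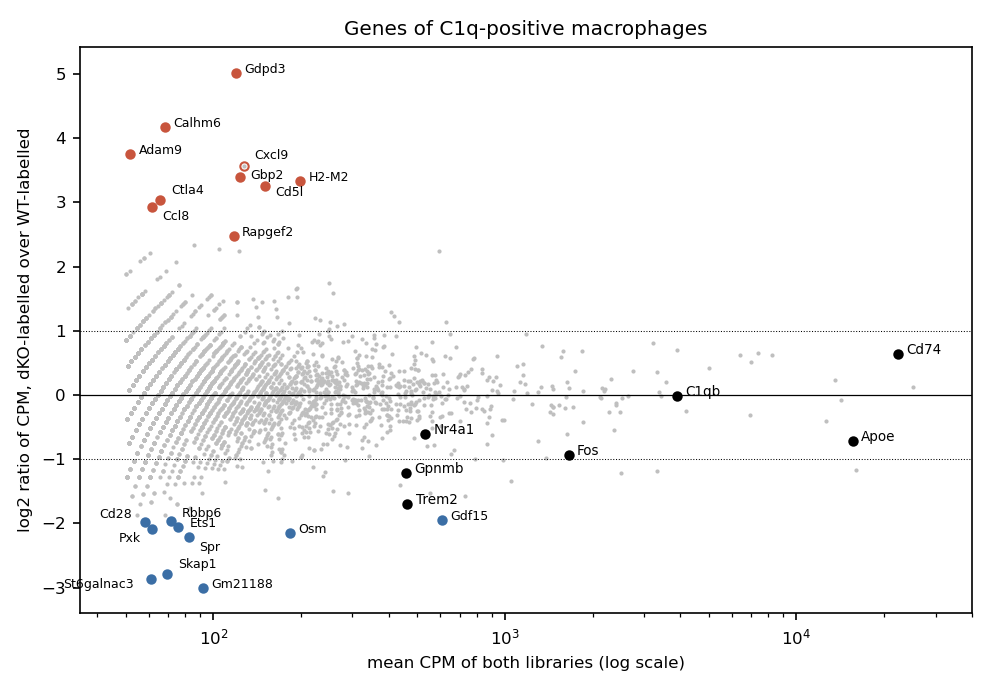
Each grey point is 1 of the 2940 genes, with the mean CPM of both libraries on the x axis (logarithmic) and the log2 ratio of dKO-labelled over WT-labelled on the y axis. Coloured points are the 10 genes at each end, the open circle of Cxcl9 is a lower bound because it had no UMI in the WT-labelled library, black points are other genes of the text, and dotted lines mark 2-fold.

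The 10 genes highest in the dKO-labelled library were *Gdpd3*, *Calhm6*, *Adam9*, *Cxcl9*, *Gbp2*, *H2-M2*, *Cd5l*, *Ctla4*, *Ccl8* and *Rapgef2*. *H2-M2*, a nonclassical class I gene, had 35.7 CPM (11.6 to 83.3) in the WT-labelled library and 361 CPM (299.7 to 430.2) in the dKO-labelled library, from 3 of 64 and 24 of 110 cells, with 22 of 123 UMIs of the dKO-labelled library in 1 cell. Its log2 ratio was 3.34, or 1.74 with the CPM of single cells averaged. It was at 0 and 24 CPM in C1q-negative *Lyz2* cells and at 0.570 and 0.784 CPM in T cells. *Calhm6*, a channel gene, had 1 UMI in the WT-labelled library against 44 from 26 cells in the dKO-labelled one, a log2 ratio of 4.17 (1.62 to 9.51). Without the cells that hold a Kupffer gene it had no UMI in the WT-labelled library, and the ratio was a bound of at least 2.30. *Adam9*, a membrane protease, had 1 and 33 UMIs, a log2 ratio of 3.76 (1.18 to 9.11), and a bound of at least 2.01 without the cell with the most UMIs in each library. *Rapgef2*, an exchange factor for Rap proteins, had 35.7 and 199 CPM, with a log2 ratio of 2.48 (1.19 to 4.15), against -0.36 over all other cells.

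Some of the genes at these ends are T cell genes or differ in T cells too. Of the lists, 5 of 16 genes of the T cell list passed the filter and 3 were past 2-fold lower (5.37% over all genes), *Cd28* and *Skap1* among them, while *Ctla4* was past 2-fold higher (5.27% over all genes) among 2 of 9 Treg genes that passed. Of dendritic cell genes, 3 of 12 passed the filter and *Ccr7* was past 2-fold higher, with 30 of 35 UMIs in 1 cell. *Gdpd3*, which encodes a lysophospholipase D, had 1 UMI in the macrophages of the WT-labelled library and 79 in those of the dKO-labelled one, a log2 ratio of 5.02 (2.50 to 10.34). Without the cell with the most UMIs in each library it was a bound of at least 3.28. With the CPM of single cells averaged it was 6.46. After thinning it was found in 0 of 52 and 22 of 100 macrophages, 1 of 6153 and 3175 of 8520 T cells and 0 of 655 and 231 of 2715 plasmacytoid dendritic cells (at least 3 *Siglech* UMIs, no *Cd3*). The gene is thus nearly confined to the dKO-labelled library in all 3 populations, and the part that free RNA has in the macrophages' count was not tested. *Ctla4*, a Treg gene, had 14.3 and 117 CPM in the macrophages and 411 and 1674 CPM in T cells, with a log2 ratio of 3.04 (1.09 to 6.13) in the macrophages from 2 UMIs of the WT-labelled library. Without the 6 and 14 macrophages that hold at least 5 T cell UMIs, 2 and 2 of its UMIs were left, too few for a ratio. At the low end, *Skap1*, *Ets1*, *Cd28* and *St6galnac3* were at 853 and 483 CPM, 624 and 551 CPM, 556 and 384 CPM and 251 and 142 CPM in T cells. In the macrophages, 9 of 17 UMIs of *Skap1*, 9 of 13 of *Cd28* and 10 of 15 of *St6galnac3* in the WT-labelled library came from 1 cell each. Without the macrophages with T cell UMIs, *Skap1* had 3 and 1 UMIs, *Cd28* 2 and 2 and *St6galnac3* 1 and 0, too few for a ratio, while *Ets1* had a log2 ratio of -2.61 (from -2.05). At a C1q sum of at least 5 UMIs, *Skap1* was at -0.90 and *Ets1* at -0.31, and without its top cell *Cd28* was at -0.71. The part of T cell RNA in these ratios was examined only by leaving those cells out.

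The other genes at the low end were *Gm21188*, *Spr*, *Pxk*, *Rbbp6*, *Osm* and *Gdf15*. *Gdf15*, a stress-induced hormone of the TGF-β family, had 964 CPM (808 to 1141) in the WT-labelled library and 249 CPM (199 to 308) in the dKO-labelled library, from 30 of 64 and 27 of 110 cells, and it was also lower in the C1q-negative cells (389 and 68.6 CPM). *Osm*, which encodes the cytokine oncostatin M, had 300.0 CPM (216 to 406) in the WT-labelled library and 67.4 CPM (42.7 to 101) in the dKO-labelled library, against 348 and 82.3 CPM in the C1q-negative cells. *Spr*, an enzyme of tetrahydrobiopterin synthesis, had 136 and 29.3 CPM, and *Rbbp6* had 114 and 29.3 CPM, both from at most 2 UMIs per cell.

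Of the antigen presentation genes, all 7 class II genes passed the filter, all 7 had a ratio above 0 and 1 was past 2-fold higher in the dKO-labelled library, with a median log2 ratio of 0.63 against 0.04 for all genes. *H2-Aa*, the alpha chain of I-A, had 6457 CPM (6043 to 6892) in the WT-labelled library and 9982 CPM (9649.9 to 10323) in the dKO-labelled library. *Cd74*, the invariant chain, had 17428 CPM (16744 to 18134) in the WT-labelled library and 27159 CPM (26609 to 27718) in the dKO-labelled library, a log2 ratio of 0.64 (0.58 to 0.70). *Ciita*, the class II transactivator, was the gene past 2-fold, at 4 and 29 UMIs from 4 of 64 and 22 of 110 cells, with a log2 ratio of 1.57 (0.06 to 3.54). Per cell, the sum of *H2-Aa*, *H2-Ab1*, *H2-Eb1* and *Cd74* had a median of 32729 CPM (quartiles 14472 and 53709.8) in the WT-labelled library and 50561 CPM (quartiles 25048 and 74436) in the dKO-labelled one, so the cells of the libraries overlap. In the C1q-negative cells *H2-Aa* had 3382 and 4388 CPM. The class II list summed to 19140.5 and 23777 CPM in these cells and to 629 and 1098 CPM in T cells, where *Cd74* was found in 8.71% (8.02 to 9.44) and 33.4% (32.4 to 34.4) after thinning. Plasmacytoid dendritic cells, rich in class II RNA, made up 7.15% and 15.6% of the filtered cells. The part of free RNA in the macrophages' class II levels was not tested. Of costimulation and checkpoint ligands, 5 of 11 passed the filter and *Cd274* alone was past 2-fold. *Cd274*, which encodes PD-L1, had 92.9 CPM (49.4 to 159) in the WT-labelled library and 267 CPM (215 to 328) in the dKO-labelled library, and 106 and 257 CPM in the C1q-negative cells. *Cd86*, a ligand of CD28 and CTLA-4, had 400.0 and 586 CPM, with a log2 ratio of 0.55 (0.12 to 1.01).

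Of 13 interferon-stimulated genes, 9 passed the filter and 6 of them had a ratio above 0, with a median log2 ratio of 0.34. Past 2-fold were 4 higher in the dKO-labelled library (5.27% over all genes) and none lower (5.37%). Of the 4, *Cxcl9*, *Gbp2* and *Cxcl10* had 0, 21.4 and 35.7 CPM in the WT-labelled library. From such levels a gene passes a filter on the mean of both libraries only when it is higher in the dKO-labelled one. The count thus rests partly on the filter. *Cxcl9*, a chemokine that attracts CXCR3+ T cells, had no UMI in the 64 macrophages of the WT-labelled library and 87 UMIs from 22 of 110 in the dKO-labelled one (255 CPM, 204 to 315), at least 11.9-fold higher when the 0 is set at the floor of 3 UMIs. On the log2 scale this bound was 3.57, and it was 2.66 at a C1q sum of at least 5 UMIs. No single cell held more than 16 of these UMIs. *Gbp2*, a guanylate-binding GTPase, had 3 UMIs from 3 cells and 77 from 34, with a log2 ratio of 3.40 (1.80 to 5.71). *Cxcl10*, a related chemokine, had 35.7 and 117 CPM, with 13 of 40 UMIs of the dKO-labelled library in 1 cell. *Isg15* had 186 and 235 CPM (log2 ratio 0.34, -0.32 to 1.03), *Irf7* 114 and 96.7 CPM and *Bst2* 600.0 and 375 CPM (log2 ratio -0.68, -1.09 to -0.26). The C1q-negative cells differed in the same direction, where *Cxcl9* had 17.7 and 302 CPM and *Gbp2* 23.6 and 288 CPM.

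The 250 bases before the start of *Cxcl9* (chr5:92328080-92328329, minus strand) and *Gbp2* (chr3:142620413-142620662, plus strand) on GRCm38.p6, from RefSeq, were searched because both genes are higher in the dKO-labelled library. GENCODE starts *Gbp2* farther upstream, so that 61 bases of its window lie in the first exon there, and it is printed only to the end of the match (chr3:142620413-142620613). Capitals mark GAAA, any 2 bases and GAAA again, on either strand, the core of an interferon-stimulated response element.
Cxcl9: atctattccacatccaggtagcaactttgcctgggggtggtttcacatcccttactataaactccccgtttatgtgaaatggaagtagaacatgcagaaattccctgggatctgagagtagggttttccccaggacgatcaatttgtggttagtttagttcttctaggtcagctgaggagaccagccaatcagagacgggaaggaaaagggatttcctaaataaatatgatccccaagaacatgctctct
Gbp2: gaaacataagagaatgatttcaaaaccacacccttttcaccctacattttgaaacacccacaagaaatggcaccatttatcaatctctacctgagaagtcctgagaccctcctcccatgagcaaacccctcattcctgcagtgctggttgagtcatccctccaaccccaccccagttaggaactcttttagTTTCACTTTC
*Gbp2* holds 1 match, from 59 to 50 bases before the RefSeq start and within the first exon of GENCODE, and 2.97% of all windows of this length hold at least 1. Neither window holds TTCNNNGAA, the letters of a gamma-activated site, which 7.01% of all windows hold. A window without these letters says nothing of elements with other letters inside it or of elements farther away. Within the dKO-labelled library, *Gbp2* was found in 11 of 22 macrophages with a *Cxcl9* UMI and in 23 of 88 without. Summed over these cells, *Cxcl10* had 354 CPM (231 to 518) against 52.3 CPM (28.6 to 87.8), and *Cd74* 25439 CPM (24299 to 26619) against 27632 CPM (27005 to 28269). These subsets were chosen after seeing the data, and 1 cell held 13 of the 26 *Cxcl10* UMIs of the cells with *Cxcl9*.

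Of 17 chemokines, 15 passed the filter, with a median log2 ratio of 0.48. Past 2-fold were 5 higher in the dKO-labelled library (5.27% over all genes) and 1 lower (5.37%). Beside *Cxcl9* and *Cxcl10*, which the interferon-stimulated list also counts, the higher ones were *Ccl5*, *Ccl8* and *Ccl24*. *Cxcl9*, *Cxcl10*, *Ccl8* and *Ccl24* had 0, 35.7, 14.3 and 28.6 CPM in the WT-labelled library. From such levels a gene passes a filter on the mean only when it is higher in the dKO-labelled library. The count of higher genes thus rests partly on the filter and says little. *Ccl5* had 129 and 387 CPM (log2 ratio 1.59, or 0.89 with the CPM of single cells averaged), but it is also a T cell gene, at 1670.3 and 6713 CPM in T cells. *Ccl8* had 2 and 37 UMIs, a log2 ratio of 2.92 (0.97 to 6.02) or 1.63 with the CPM of single cells averaged, with 16 of 37 in 1 cell, and *Ccl24* had 4 and 26 UMIs, with 13 of 26 in 1 cell. *Pf4* was the lower one, at 221 and 79.2 CPM, a log2 ratio of -1.48 (-2.28 to -0.69). *Cxcl2*, a neutrophil chemokine, had 2079 and 2234 CPM, with a log2 ratio of 0.10 (-0.09 to 0.30). Of 12 inflammatory cytokines, 4 passed the filter and none was past 2-fold. *Il1b*, which encodes interleukin-1β, had 1214 CPM (1039 to 1411) in the WT-labelled library and 1944 CPM (1799 to 2097) in the dKO-labelled library, and *Il1rn*, its natural antagonist, had 35 and 131 UMIs (log2 ratio 0.62, 0.07 to 1.20). *Il6*, *Il12b*, *Il23a* and *Ifnb1* had no UMI in either library, and *Tnf* had 6 and 20.

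**Figure D4:**
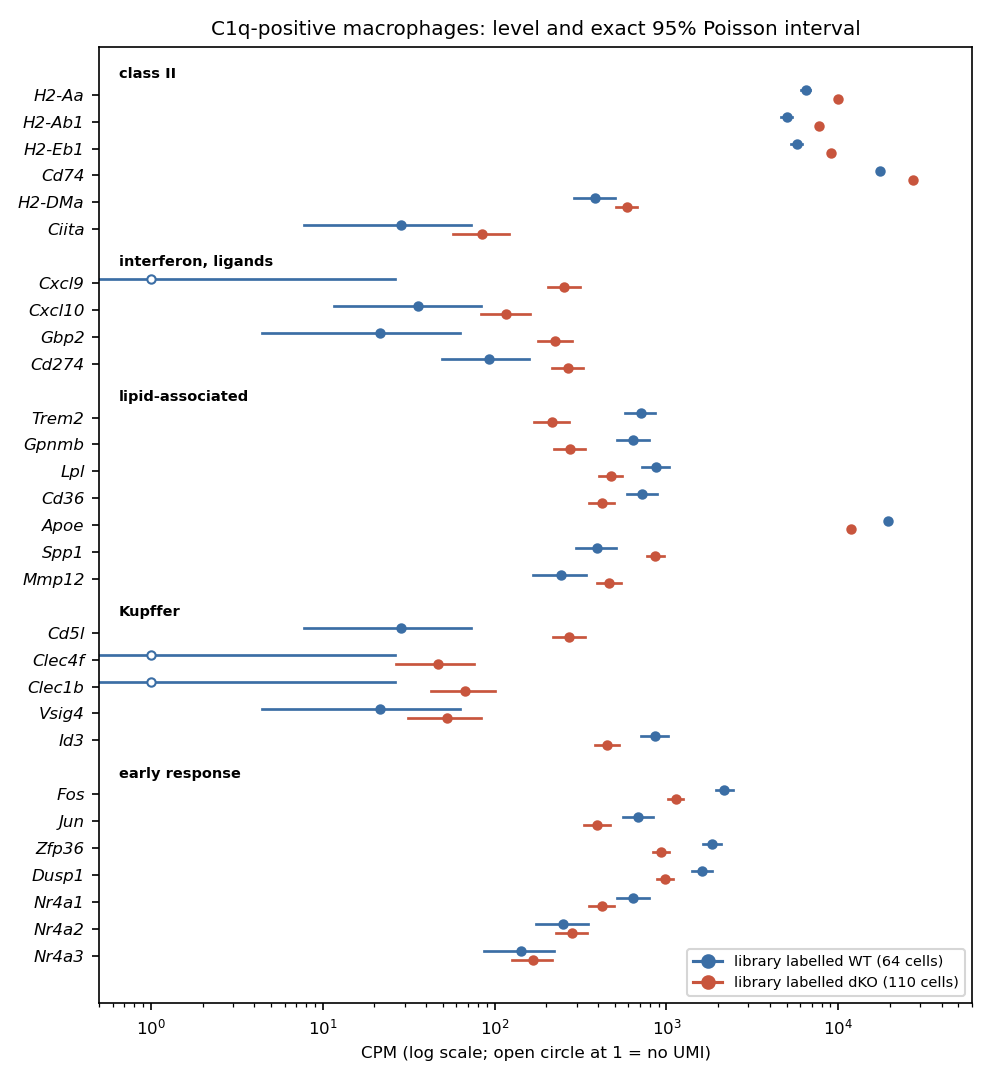
Level in CPM (logarithmic x axis) of genes grouped by role in the C1q-positive macrophages, with points for the WT-labelled (blue) and dKO-labelled (red) library and lines for exact 95% Poisson intervals. The class II genes, Cxcl9, Cxcl10 and Gbp2 lie to the right in the dKO-labelled library and Trem2, Gpnmb, Lpl, Cd36 and Apoe to the left, and open circles at 1 CPM stand for genes without a UMI.

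Lipid-associated genes went mostly the other way. Of 16 genes, 14 passed the filter: 11 had a ratio below 0, 2 were past 2-fold lower in the dKO-labelled library and 1 past 2-fold higher, and the median log2 ratio was -0.42. *Trem2* had 707 CPM (575 to 861) in the WT-labelled library and 217 CPM (170.3 to 272) in the dKO-labelled library, a log2 ratio of -1.70 (-2.16 to -1.26). It was found in 41 of 64 and 38 of 110 cells, and after thinning in 25 of 52 and 18 of 100, or 48.1% (34 to 62.4) and 18% (11 to 26.9). No cell held more than 10 of its UMIs. *Gpnmb*, a lysosomal glycoprotein, had 643 CPM (517 to 790.2) in the WT-labelled library and 276 CPM (223 to 337) in the dKO-labelled library. Its log2 ratio was -1.22 (-1.65 to -0.79), or -0.63 with the CPM of single cells averaged, no longer past 2-fold. *Lpl*, lipoprotein lipase, had 864 and 475 CPM (log2 ratio -0.86, -1.21 to -0.51), and *Cd36*, a receptor for fatty acids and oxidised lipoproteins, had 721 and 422 CPM (log2 ratio -0.77, -1.15 to -0.39). The cathepsin *Ctsd* had 2800.0 and 1923 CPM and *Ctsb* had 4543 and 3817 CPM. *Trem2* was also lower in the C1q-negative cells of the dKO-labelled library, at 300.5 and 72 CPM. The exception was *Spp1*, which encodes osteopontin, at 393 and 862 CPM: 1 cell of the dKO-labelled library held 130 of its 294 UMIs, and it was found in 16 of 64 and 24 of 110 cells. Without the cell with the most UMIs in each library, its log2 ratio was 0.84, no longer past 2-fold. *Mmp12*, a macrophage elastase, had 243 and 466 CPM, from 8 of 64 and 14 of 110 cells.

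Of 15 lipid handling genes, 13 passed the filter, 10 had a ratio below 0 and 3 above, and none was past 2-fold, with a median of -0.33. *Apoe* had a log2 ratio of -0.71 (-0.78 to -0.64), and it was lower in the C1q-negative cells as well (5249 and 1351 CPM). *Apoc2*, the cofactor of lipoprotein lipase, had 264 and 135 CPM, and *Pltp*, a phospholipid transfer protein, 364 and 208 CPM. *Abca1*, a cholesterol exporter, had 357 and 346 CPM, a log2 ratio of -0.05 (-0.53 to 0.46), while *Abcg1*, another exporter, had 92.9 and 176 CPM (log2 ratio 0.92, 0.04 to 1.91).

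The 15 Kupffer cell genes together had 1343 and 1422 CPM, a log2 ratio of 0.08 (-0.16 to 0.33), and 9 and 14 of them had a UMI. *Clec4f*, *Clec1b* and *Cd5l* were found mainly in the dKO-labelled library, while *Id3* and *Nr1h3*, which other macrophages also express, had ratios below 0 and not past 2-fold. *Timd4*, a marker of long-resident Kupffer cells, and *Cd163* had no UMI in either library. *Clec4f*, a lectin restricted to Kupffer cells in mice, had 0 and 16 UMIs, the latter from 5 cells. *Clec1b* had 0 and 23 UMIs, from 14 cells. After thinning to 1000 UMIs, *Clec1b* was found in 0 of 52 and 7 of 100 macrophages, but also in 27 of 655 and 57 of 2715 plasmacytoid dendritic cells. *Vsig4*, a complement receptor, had 3 and 18 UMIs and was found in 2 of 52 and 3 of 100 macrophages after thinning. *Cd5l*, a secreted scavenger protein, had 4 UMIs from 1 cell and 93 from 22, a log2 ratio of 3.25 (1.85 to 5.16). Any of *Clec4f*, *Vsig4*, *Timd4*, *Cd5l*, *Marco* and *Clec1b* was found in 2 of 64 and 29 of 110 macrophages, which is 3.13% (0.381 to 10.8) and 26.4% (18.4 to 35.6), before thinning. At least 2 of these 6 genes were found in 1 of 64 and 11 of 110, which is 1.56% (0.0396 to 8.4) and 10% (5.1 to 17.2). The intervals of this stricter share overlap. At 1000 UMIs, *Cd5l* was found in 0 of 52 and 14 of 100 macrophages and in 3 of 6153 and 25 of 8520 T cells. *Id3* had 857 and 451 CPM (log2 ratio -0.92, -1.28 to -0.57) and *Nr1h3*, which encodes LXRα, 186 and 120.2 CPM (log2 ratio -0.63). Of 15 Kupffer cell genes, 6 passed the filter, 2 were past 2-fold higher (*Cd5l* and *Il18bp*, an inhibitor of interleukin-18) and none lower, with a median log2 ratio of 0.04. Without the cells that hold a Kupffer gene, *Cd5l* has no UMI by definition and the log2 ratio of *Il18bp* moved from 1.22 to 0.12.

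The 29 cells of the dKO-labelled library with a Kupffer gene differed from the other 81 in further genes, although these subsets were defined from the same cells. Of the 29, only 11 had at least 2 of the 6 genes. *Spp1* had 52.3 CPM (14.2 to 134) against 1096 CPM (974 to 1229.8), where 1 cell held 130 of the latter's 290 UMIs. *Ccr2*, the receptor of recruited monocytes, had 26.1 CPM (3.16 to 94.4) against 181 CPM (134 to 241), and *Cd9* 209 CPM (119 to 339) against 619.9 CPM (529 to 722). On the other side, *Apoe* had 20056 CPM (19065 to 21085) against 9431 CPM (9064 to 9808), *Id3* 1098 CPM (875 to 1359) against 265 CPM (206 to 334), *Adgre1* 444 CPM (308 to 621) against 189 CPM (140.3 to 249), *Vcam1* 353 CPM (232 to 513) against 151 CPM (108 to 206) and *Mertk* 366 CPM (243 to 529) against 117 CPM (79.6 to 166). *Trem2* had 209 CPM (119 to 339) against 219 CPM (166 to 283), both below the WT-labelled library's level. Without the cells with a Kupffer gene, the log2 ratio of *Trem2* was -1.70 and that of *Apoe* was -1.0. The median depth of the subsets was 2200.0 and 3212 UMIs.

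Most early-response genes had ratios below 0. Of 12 immediate early genes, 11 passed the filter, 8 were below 0 and none was past 2-fold, with a median log2 ratio of -0.61. *Fos*, a subunit of AP-1, had 2171 CPM (1934 to 2429.7) in the WT-labelled library and 1135 CPM (1024 to 1253) in the dKO-labelled library. *Jun*, its partner, had 686 and 396 CPM (log2 ratio -0.79, -1.18 to -0.40), *Zfp36*, which marks cytokine mRNAs for decay, 1843 and 932 CPM (log2 ratio -0.98, -1.22 to -0.74), and *Dusp1*, a MAP kinase phosphatase, 1614 and 982 CPM (log2 ratio -0.72, -0.96 to -0.47). The summed list was at 10145 and 6030.1 CPM in the C1q-negative cells and at 7807 and 7333 CPM in T cells. These genes also respond to tissue digestion and handling, whose part was not tested.

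The *Nr4a* genes, orphan nuclear receptors of the early response and the targets of the study's deletion in T cells, were measured in the macrophages as well. *Nr4a1* had 643 CPM (517 to 790.2) in the WT-labelled library and 422 CPM (356 to 497) in the dKO-labelled library, a log2 ratio of -0.61 (-1.0 to -0.21), whereas over all other cells the log2 ratio was 1.20 (1.18 to 1.23). *Nr4a2* had 35 and 96 UMIs, a log2 ratio of 0.17 (-0.40 to 0.77), and *Nr4a3* 143 and 167 CPM, a log2 ratio of 0.23 (-0.53 to 1.04). With the CPM of single cells averaged, the log2 ratio of *Nr4a1* was -0.16, and the shares of macrophages holding a UMI of it after thinning, 36.5% (23.6 to 51) and 30% (21.2 to 40), had overlapping intervals. In the C1q-negative cells *Nr4a1* had 754 and 638 CPM, a log2 ratio of -0.24 (-0.57 to 0.09).

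Of Fc and complement receptors, 9 of 10 passed the filter: *Fcgr4*, an activating Fc receptor, was past 2-fold higher, at 50 and 147 CPM, and *C5ar1*, the receptor of the anaphylatoxin C5a, past 2-fold lower, at 336 and 147 CPM (log2 ratio -1.20, -1.80 to -0.59). With the CPM of single cells averaged, *C5ar1* was at -0.53, no longer past 2-fold. Of complement genes other than C1q, 4 of 11 passed the filter, and *Cfb*, the alternative pathway's factor B, had 28.6 and 120.2 CPM (log2 ratio 2.07, 0.61 to 4.02), while the C1q partner proteases *C1ra* and *C1s1* had 0 and 5 UMIs and none. Among 8 of 15 efferocytosis and scavenger genes that passed, *Mrc1* was past 2-fold higher (log2 ratio 1.45, 0.52 to 2.51), *Axl*, a receptor of the *Mertk* family, had 186 and 287 CPM, *Mertk* had a log2 ratio of -0.05 (-0.74 to 0.69), and *Lrp1* had 343 and 199 CPM. Iron and heme genes, of which 7 of 10 passed, had none past 2-fold. *Ftl1* and *Fth1*, the ferritin chains, had log2 ratios of -0.40 (-0.48 to -0.32) and 0.13 (0.07 to 0.19). Among 8 of 14 fibrosis mediators that passed, *Spp1* and *Osm* (above) were past 2-fold, and *Tgfb1* had 350.0 and 305 CPM and *Igf1* 314 and 229 CPM. *Nos2* and *Retnla*, markers of classical and alternative activation, had no UMI, so this depth does not separate the libraries by these genes. *Itgam*, which encodes CD11b, had 121 and 82.1 CPM, with a log2 ratio of -0.56 (-1.48 to 0.40).

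At a fixed 1000 UMIs, a *Gdf15* UMI was seen in 42.3% (28.7 to 56.8) and 17% (10.2 to 25.8) of the macrophages, and *Gpnmb* in 30.8% (18.7 to 45.1) and 13% (7.11 to 21.2) and *Cd9* in 50% (35.8 to 64.2) and 24% (16 to 33.6), all lower in the dKO-labelled library. The summed level of *Cd9* differed less, at 671 and 528 CPM, a log2 ratio of -0.35. On the other side were *H2-M2* with 1.92% (0.0487 to 10.3) and 20% (12.7 to 29.2), *Gbp2* with 3.85% (0.469 to 13.2) and 16% (9.43 to 24.7) and *Cxcl9* with 0% (0 to 6.85) and 12% (6.36 to 20), although the intervals of *Gbp2*, *Cxcl9* and *Gpnmb* overlap. *Il1b* had 36.5% (23.6 to 51) and 55% (44.7 to 65) and *Fos* 69.2% (54.9 to 81.3) and 52% (41.8 to 62.1), with overlapping intervals. As a background, *Trem2* was found in 8 of 6153 and 11 of 8520 T cells, *Cxcl9* in 5 of 6153 and 14 of 8520, *Gbp2* in 236 of 6153 and 496 of 8520 and *Il1b* in 37 of 6153 and 56 of 8520, with T cell medians of 1722 and 1369 UMIs before thinning.

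**Figure D5:**
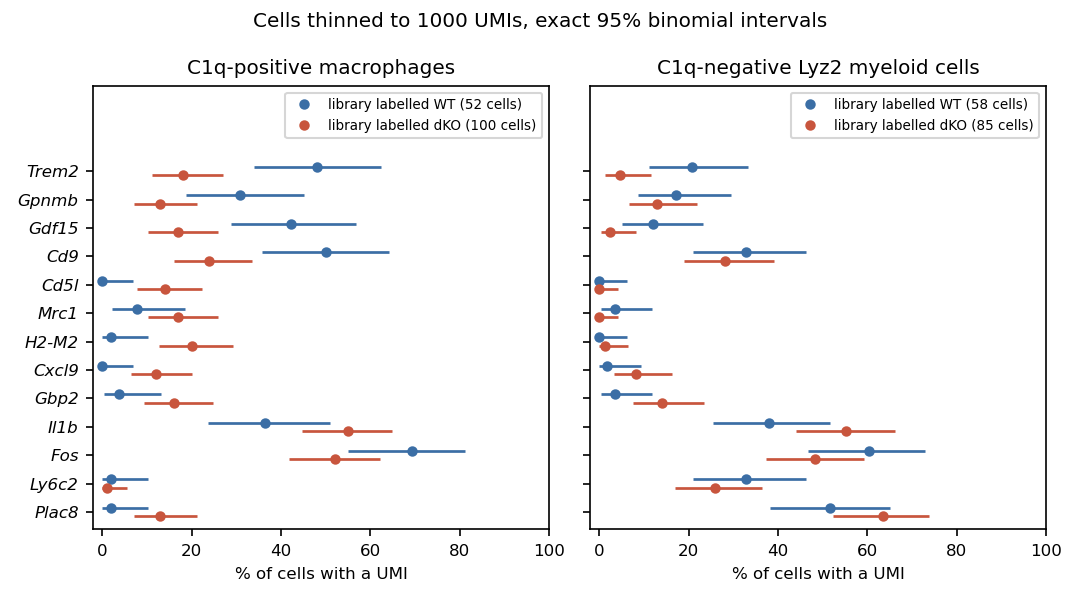
Percent of cells with at least 1 UMI of a gene after thinning to 1000 UMIs, for the C1q-positive macrophages (left, 52 and 100 cells) and the C1q-negative Lyz2 myeloid cells (right, 58 and 85 cells), with exact 95% binomial intervals. Trem2, Gdf15 and Cd9 are found in fewer macrophages of the dKO-labelled library and Cd5l, H2-M2 and Cxcl9 in more, while Ly6c2 and Plac8 are mostly in the C1q-negative cells.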

How the data were processed

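Hepatic CD4+ T cells of WT and dKO mice were captured with a 10x 5′ kit. The authors deposited, for each library, counts of UMIs per gene and cell called by Cell Ranger 7.0.1 on mm10, without normalization, and tables of T cell receptor contigs with their UMI counts. Filtered cells held 23437516 and 37794986 UMIs. For each population, raw UMIs of its cells were added up and divided by their total (CPM). The members and gene lists were chosen with earlier results of these data known. Genes were named by rule: the rule genes, the *Nr4a* genes, list members of high level, past 2-fold or defining a cell type, 10 genes at each end of the ratio and 20 leading genes, leaving out receptor, immunoglobulin, mitochondrial and ribosomal protein genes. Other examples, and the subsets by Kupffer genes and *Cxcl9*, were chosen after their values were seen. Doublets were kept, since Scrublet (scanpy 1.11.5) marked 7 and 0 cells at its automatic threshold. As an alternative, cells of the highest scores were left out (0.8% per 1000 cells). Other alternatives were the rule's thresholds, filters, TMM factors (edgeR 4.0.16), the mean of each cell's CPM and leaving out cells with contigs or T cell UMIs. Gene positions are from GENCODE M21 and promoters from RefSeq, in whose table *C1qa* was not matched. Python 3.11.15, numpy 2.4.6, pandas 2.3.3 and scipy 1.17.1 were used. The computation was tested on simulated data. Some genes of the lists are counted but not reported here by name.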

Additional observations from a re-analysis of the deposited data

Results flagged for a closer look

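The *Nr4a* family and the 20 genes with the most extreme ratios in the macrophages were the only ones compared in this way, and 4 of them had ratios between the libraries with opposite signs in the macrophages and in all other filtered cells, with neither counting interval reaching 0. *Nr4a1* had a log2 ratio of -0.61 in the macrophages and 1.20 in the other cells. With the CPM of single cells averaged, that of *Nr4a1* in the macrophages was -0.16, and in the C1q-negative *Lyz2* cells the summed ratio was -0.24. *Rapgef2* had 2.48 against -0.36, *Spr* -2.21 against 0.22, and *Rbbp6* -1.96 against 0.25. The differences were not tested, since each genotype has 1 library, and the last 3 genes were chosen for lying at an end of the macrophages' ratios.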

How the results depend on the processing

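With any number of *Cd3* UMIs the share of macrophages was 1.65% and 1.66%, without cells with a contig 0.923% and 0.875%, with a C1q sum of at least 5 UMIs 0.502% and 0.515%, and without *Siglech* cells in the denominator 0.713% and 0.829%. With any number of *Cd3* UMIs the share with a contig was 24.7% and 18.6%. The counts of genes past 2-fold (155 higher, 158 lower) were 53 and 37 at a mean of at least 100 CPM, 298 and 158 at 20 CPM, 973 and 1472 at 1 UMI in each library, 335 and 183 with the mean of each cell's CPM, 220 and 117 with a C1q sum of at least 5, and 135 and 181 with TMM factors, which shift ratios by 0.06 (log2); filters change how many genes are counted, and for the mean of each cell's CPM the cause was not tested. Against C1q-negative cells, the 71 higher genes became 40 at 100 and 187 at 20 CPM and the 56 lower ones 131 at 20 CPM; with 1 library alone they were 198 to 247 and 152 to 218. Of 161 gene ratios, 37 were past 2-fold and 28 of these remained so under every alternative that gave a value. For 6 of the 37, 1 or 2 of the 9 alternatives left too few UMIs for a ratio (3 or fewer in both libraries). Signs turned under some alternative for 35 of the 161, among them 1 of the 37, *Ccr7*, at a C1q sum of at least 5 (-3.31) and without Kupffer gene cells (-0.66); its UMIs sit mostly in 1 cell. The alternatives without T cell UMIs, the top cell or Kupffer gene cells were chosen after seeing the data. Depth limits most genes: 3 UMIs are 21.4 CPM in the WT-labelled macrophages. No paired analysis was possible because each genotype has 1 library.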
